A study of Homo sapiens with 12 samples.

Results

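This account is about the annexins and their partner S100A10 in 22Rv1 cells, a human prostate carcinoma line, measured on Illumina HumanHT-12 v4 bead arrays. The members were all probes that the array annotation gives to ANXA1, ANXA2, ANXA2P1, ANXA3, ANXA4, ANXA5, ANXA6, ANXA7, ANXA11 or S100A10, which came to 17 of 47323 probes and 10 genes. The genes were chosen from results of these same arrays, the change with doxycycline and the level without it, so every comparison below counts as used in the choice. The p-values, adjusted over all probes tested, are given as a description of these arrays and are no independent evidence for the members. The study asked how the cells change when HNF4G, a nuclear receptor that binds DNA and regulates genes of gut and liver, is lowered by RNA interference.

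Each of 3 sublines carried a hairpin that is expressed when doxycycline is added, and the 6 groups held 2 arrays each. They were hairpin 1 against HNF4G (HNF4Gsh1) with doxycycline and hairpin 1 without it, hairpin 2 against HNF4G (HNF4Gsh2) with doxycycline and hairpin 2 without it, and the scrambled hairpin (SCR) with doxycycline and without it. Cells grew in RPMI with 10% fetal bovine serum, doxycycline was given for 3 days, and the cells without it had vehicle per the series' design text. The labels do not say whether a subline is 1 clone or a pool, so in a comparison between sublines the hairpin and any other difference between the sublines cannot be told apart. They number the arrays of a group 1 and 2 and do not call them separate cultures. A p-value here thus reflects the spread of these arrays alone, and that spread may be technical.

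Annexins bind phospholipid membranes when calcium is present, and differ mainly in the short tail in front of a shared core of annexin repeats. S100A10, also called p11, belongs to the S100 family of calcium sensors but no longer binds calcium, and 2 copies of it join 2 copies of annexin A2 through the annexin's tail in a complex that sits at the plasma membrane and captures plasminogen. ANXA1 is induced by glucocorticoids and its product acts on formyl peptide receptors. Lower ANXA1 and ANXA2 levels than in benign epithelium are known from many prostate carcinomas.

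The RefSeq promoters of the 2 genes whose levels changed most, and of S100A10 as annexin A2's partner, are shown from 250 bases before to 50 bases after the start of transcription in GRCh38.p14. Capitals mark each match to 5 motifs searched on both strands. The motifs were CAAAGTCCA for the HNF4 site, TATAAA for the TATA box, GGGCGG for the GC box, TGACTCA for the AP-1 site and the letters of the CCAAT box itself.
ANXA1, chr9:73151615-73151914, plus strand: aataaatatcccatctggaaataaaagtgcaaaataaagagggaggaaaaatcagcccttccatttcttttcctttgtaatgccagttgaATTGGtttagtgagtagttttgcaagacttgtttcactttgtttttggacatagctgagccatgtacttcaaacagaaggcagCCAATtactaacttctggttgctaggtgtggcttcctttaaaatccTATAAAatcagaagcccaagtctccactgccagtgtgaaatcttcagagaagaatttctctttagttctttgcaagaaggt
ANXA2, chr15:60397937-60398236, minus strand: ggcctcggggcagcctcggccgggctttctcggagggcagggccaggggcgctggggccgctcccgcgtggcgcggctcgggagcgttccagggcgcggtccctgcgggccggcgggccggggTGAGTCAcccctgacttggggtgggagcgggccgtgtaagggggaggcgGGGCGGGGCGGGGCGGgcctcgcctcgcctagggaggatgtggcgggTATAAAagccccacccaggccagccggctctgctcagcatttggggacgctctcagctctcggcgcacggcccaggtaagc
S100A10, chr1:151993810-151994109, minus strand: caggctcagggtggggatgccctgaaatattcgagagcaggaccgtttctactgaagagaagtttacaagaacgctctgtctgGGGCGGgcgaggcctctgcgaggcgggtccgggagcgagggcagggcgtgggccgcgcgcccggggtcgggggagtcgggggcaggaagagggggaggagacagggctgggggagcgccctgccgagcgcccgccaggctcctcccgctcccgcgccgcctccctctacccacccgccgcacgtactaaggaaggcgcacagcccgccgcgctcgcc
The ANXA1 promoter had a GC content of 37.7%, a TATA box from -31 to -26 and CCAAT boxes, 1 of them on the opposite strand, from -160 to -156 and from -77 to -73. The ANXA2 promoter had a GC content of 76.0%, a TATA box at the same place, an AP-1 site on the opposite strand from -127 to -121, and 3 GC boxes from -78 to -63 that overlap one another by 1 base. The S100A10 promoter had a GC content of 71.7% and 1 GC box, from -167 to -162. The letters of the HNF4 site were in 0 of the 13 promoters listed for 9 of the member genes, and in 0.384% of all 35116 promoters. A TATA box was in 3 of the 13 member promoters against 11.5% of all promoters, a CCAAT box in 4 against 34.6%, a GC box in 8 against 45.0%, and an AP-1 site in 1 against 4.95%.

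The arrays had median intensities of 92.5 to 108 and between 14959 and 18293 detected probes (detection p under 0.01), with the scrambled array with doxycycline numbered 1 the dimmest. HNF4G itself, read by ILMN_1743394, had normalized log2 intensities of 4.73 and 4.83 in hairpin 1 cells with doxycycline, against 6.30 and 6.18 in hairpin 1 cells without it. Hairpin 2 cells had 4.71 and 4.35 with doxycycline, against 6.40 and 6.49 without it. HNF4G was not well above background on the 4 hairpin arrays with doxycycline, so its fall was at least 2.08-fold with hairpin 1 (limma adjusted p = 0.00184) and at least 2.48-fold with hairpin 2 (limma adjusted p = 0.000323). In scrambled cells HNF4G had 5.81 and 6.19 with doxycycline, against 6.35 and 6.13 without it, a log2 difference of -0.24 (limma adjusted p = 0.712). Of the markers of luminal prostate epithelium, 6 of 7 genes with a probe were detected, all but KLK3, which encodes PSA. None of the 3 basal genes with a probe (KRT5, KRT14 and KRT15) was detected.

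Of the 17 member probes, 11 passed the filter of detection on at least 2 arrays, as did 40.5% of all probes. They read 9 of the 10 genes, and 9 of them were detected on all 12 arrays. ANXA3, read by ILMN_1694548, was detected on none, with normalized log2 values of 4.30 to 4.65. The other 5 probes left out were further probes of ANXA2 (ILMN_1711899 and ILMN_1755937), ANXA2P1 (ILMN_1698100), ANXA7 (ILMN_1662322) and ANXA11 (ILMN_1807003). A probe's level depends on its own hybridisation, so levels below are compared between arrays and never between probes.

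**Figure D1:**
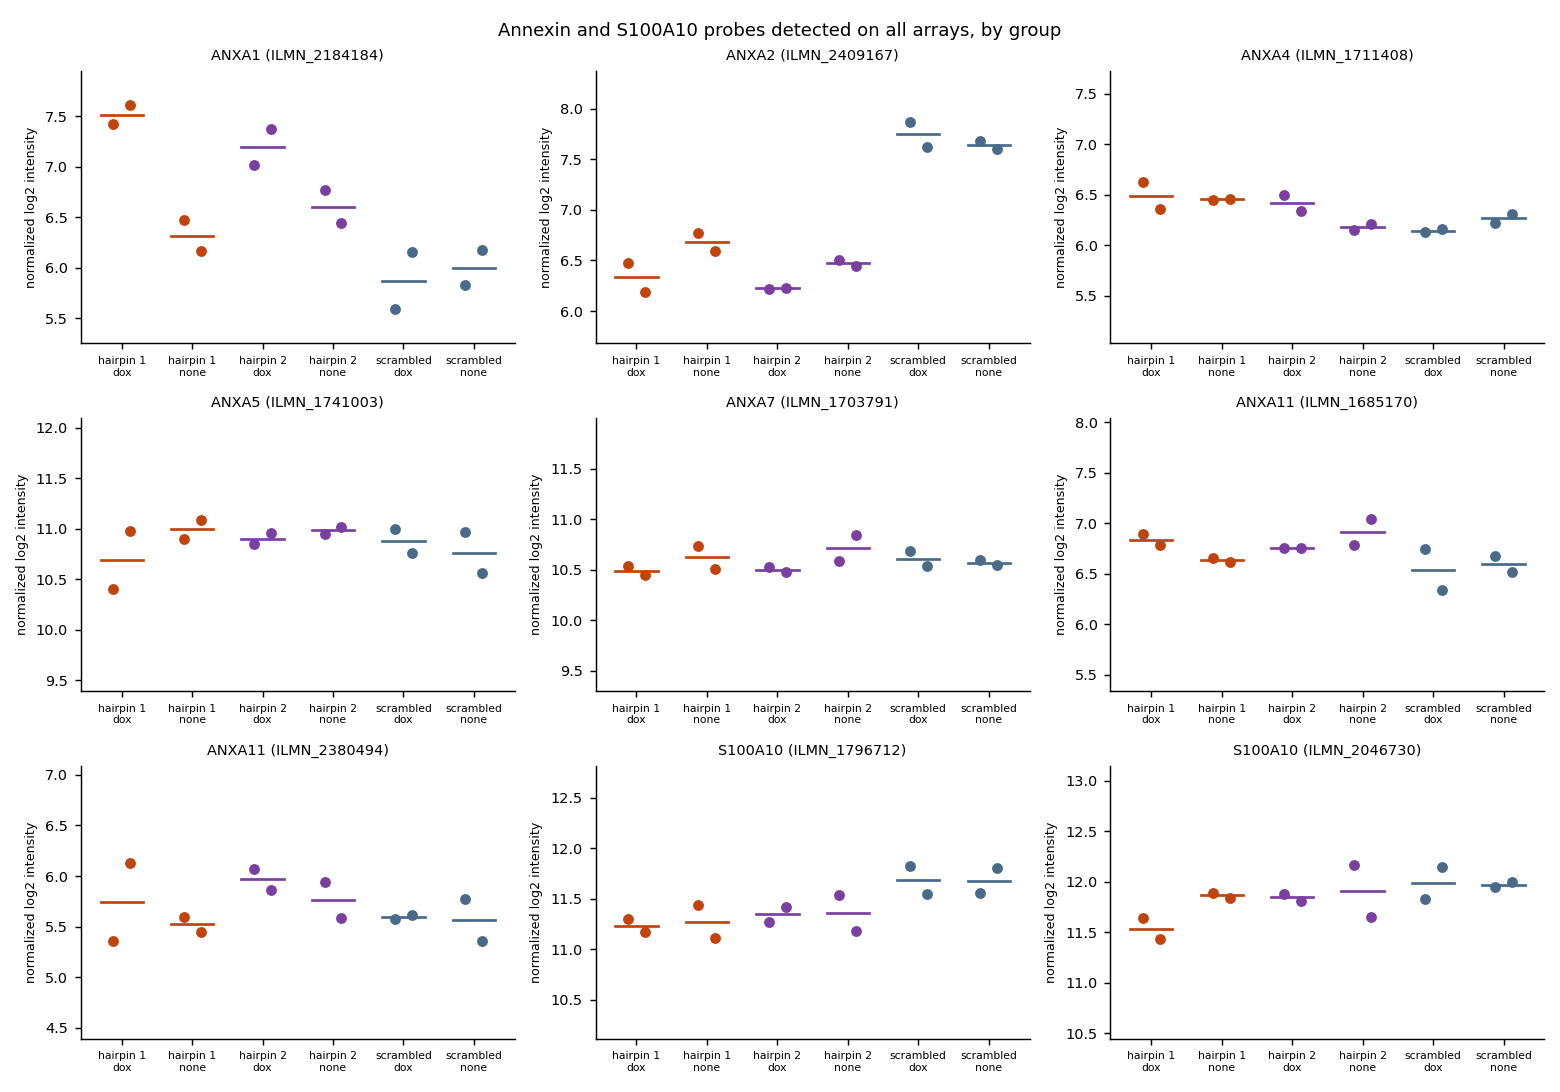
Normalized log2 intensity of the 9 member probes detected on all 12 arrays, by group; points are arrays and bars are group means of 2 arrays. Every panel spans the same log2 range. ANXA1 is highest in both hairpin groups with doxycycline, at 7.02 to 7.60, and the 8 hairpin arrays of ANXA2 lie at 6.19 to 6.78, below the 4 scrambled arrays at 7.60 to 7.87.

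At its only probe that passed the filter, ANXA2 was lower in both HNF4G hairpin sublines than in the scrambled subline before any doxycycline was given. Its probe ILMN_2409167 had normalized log2 intensities of 6.78 and 6.59 in hairpin 1 cells, 6.51 and 6.45 in hairpin 2 cells, and 7.69 and 7.60 in scrambled cells, all without doxycycline. Neither hairpin group overlapped the scrambled group. The log2 difference was -0.96 ± 0.16 (SE, 1.94-fold lower, limma adjusted p = 0.0258) for hairpin 1 and -1.17 ± 0.16 (2.24-fold lower, limma adjusted p = 0.00711) for hairpin 2. Both comparisons use the same scrambled arrays. The deposited intensities before normalization, in scanner units, were 193 and 156 in hairpin 1 cells, 180 and 174 in hairpin 2 cells, and 302 and 245 in scrambled cells. Array medians lay at 92.5 to 108 in the same units. In bulk RNA, fewer cells that express a gene and less of its RNA in each cell cannot be told apart.

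The same gap was present with doxycycline, in a comparison added after the data had been seen. ANXA2 had 6.48 and 6.19 in hairpin 1 cells with doxycycline, 6.22 and 6.23 in hairpin 2 cells with it, and 7.87 and 7.63 in scrambled cells with it. The log2 difference from scrambled cells was -1.41 ± 0.16 for hairpin 1 (limma adjusted p = 0.000343) and -1.52 ± 0.16 for hairpin 2 (limma adjusted p = 0.000205). Over all 12 arrays, the 8 hairpin arrays of ANXA2 lay between 6.19 and 6.78 and the 4 scrambled arrays between 7.60 and 7.87. In the authors' own normalized log2 values the order was the same, with 7.25 to 7.55 on the hairpin arrays and 8.09 to 8.28 on the scrambled arrays.

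Within a subline, no ANXA2 difference with doxycycline passed the test. The log2 difference was -0.35 (95% interval -0.70 to 0.00) in hairpin 1 cells, -0.25 (-0.61 to 0.10) in hairpin 2 cells and 0.10 (-0.25 to 0.46) in scrambled cells, with limma adjusted p = 0.458, 0.530 and 0.890. In both hairpin sublines the arrays with doxycycline lay below those without it, while in scrambled cells they overlapped. The mean hairpin response minus the scrambled response was -0.41 ± 0.20 (limma adjusted p = 0.462). In the order of group means, scrambled cells with doxycycline (7.75) and without it (7.64) overlapped, and then came hairpin 1 without doxycycline (6.68), hairpin 2 without it (6.48), hairpin 1 with it (6.33) and hairpin 2 with it (6.22). The hairpin 2 group without doxycycline overlapped the hairpin 1 group with it, and that group overlapped hairpin 2 with doxycycline. Hairpin 1 and hairpin 2 cells without doxycycline did not overlap, and differed by 0.21 ± 0.16 (limma adjusted p = 0.992).

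The ANXA2 call without doxycycline rested on every array compared. For hairpin 1 it was lost when any 1 of the 2 hairpin 1 or 2 scrambled arrays without doxycycline was left out, with a limma adjusted p of 0.0774 to 0.181 and a log2 difference of -1.05 to -0.87. For hairpin 2 the same held, with a limma adjusted p of 0.0650 to 0.123 and a log2 difference of -1.21 to -1.12. The ANXA2 calls with doxycycline were kept without any 1 of the 12 arrays. Without background correction the ANXA2 differences were smaller, -0.62 and -0.73 without doxycycline and -0.88 and -0.93 with it for hairpin 1 and hairpin 2, and all 4 passed the test.

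**Figure D2:**
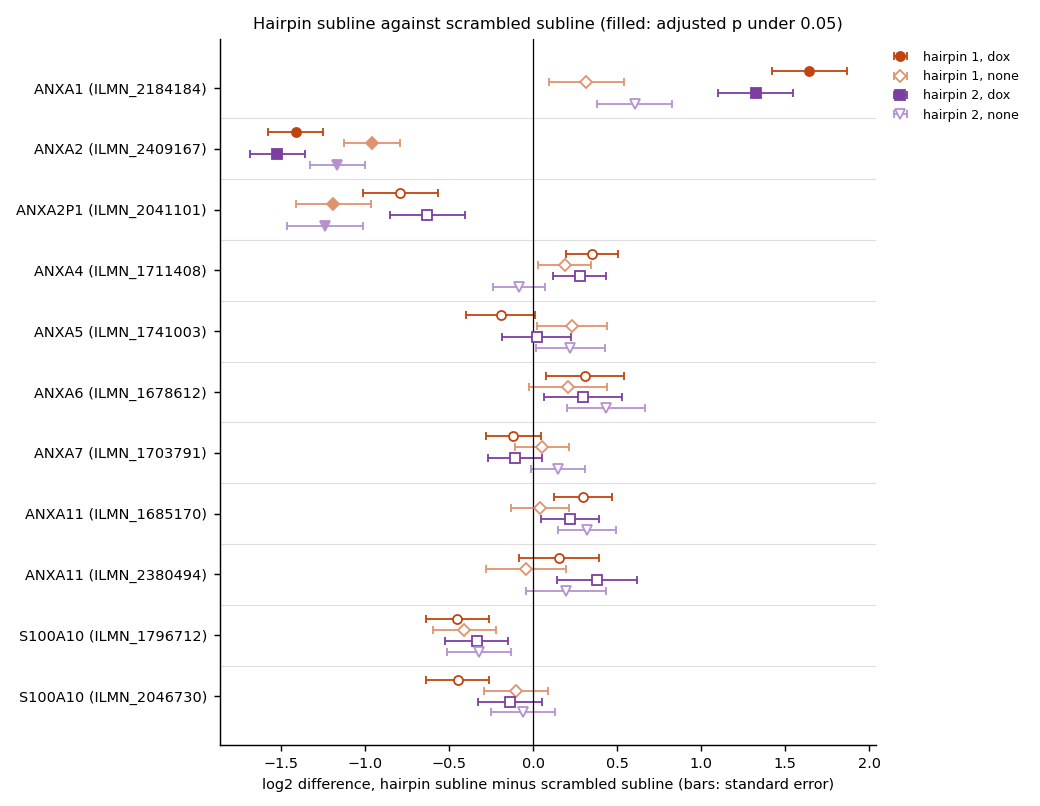
Log2 difference between each hairpin subline and the scrambled subline for the 11 member probes tested, with doxycycline (dox) and without it (none); bars are standard errors and filled symbols have an adjusted p under 0.05. The ANXA2 probe lies between -1.52 and -0.96 in all 4 comparisons, and ANXA1 is filled in the comparisons with doxycycline, at 1.64 and 1.32.

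Without doxycycline, ANXA2 was the only member detected on every array compared that passed between hairpin 1 and scrambled cells, where 0.334% of all probes passed and 0.24% were lower. The same held between hairpin 2 and scrambled cells, where 0.25% of all probes passed and 0.193% were lower. ANXA2P1 also passed in both comparisons but is left out of this count, because it passed the detection filter through the scrambled arrays, on which it is high. No member was higher. With doxycycline 1 member was higher and 1 lower in each hairpin subline, where 2.65% of all probes passed for hairpin 1 and 4.07% for hairpin 2. Between hairpin 1 and hairpin 2 cells without doxycycline 0 of 11 members passed by limma, none had an unadjusted p under 0.05, and 0.00522% of all probes passed.

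ANXA2P1, a processed pseudogene of ANXA2, was read by ILMN_2041101. Its log2 values were 4.98 and 4.56 in hairpin 1 cells, 4.81 and 4.63 in hairpin 2 cells, and 6.08 and 5.83 in scrambled cells, all without doxycycline. The probe was not well above background on either hairpin array pair, so the difference was at least 1.71-fold for hairpin 1 (limma adjusted p = 0.0416) and at least 1.91-fold for hairpin 2 (limma adjusted p = 0.0406). Over all arrays it was detected on 3 of 4 scrambled arrays and 1 of 8 hairpin arrays, so it passed the filter through the scrambled arrays and had to be high on them. With doxycycline ANXA2P1 had 4.76 and 4.85 in hairpin 1 cells, 5.29 and 4.64 in hairpin 2 cells, and 5.43 and 5.76 in scrambled cells. It was above background on neither hairpin 1 array and on 1 of the 2 hairpin 2 arrays there, and no difference passed (limma adjusted p = 0.0876 for hairpin 1 and 0.143 for hairpin 2). Both ANXA2P1 calls without doxycycline were lost in the authors' own normalized values (limma adjusted p = 0.0827 for hairpin 1 and 0.0745 for hairpin 2), without background correction (limma adjusted p = 0.0811 and 0.0723) and without the detection filter (limma adjusted p = 0.124 and 0.115). Both calls were also lost without any 1 of the 4 arrays compared and without either hairpin 1 array with doxycycline, and the hairpin 1 call without either hairpin 2 array without doxycycline as well. Over those arrays the limma adjusted p was 0.0673 to 0.254 for hairpin 1 and 0.0672 to 0.300 for hairpin 2.

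The ANXA2 locus has near-identical processed copies elsewhere in the genome, and the sequences of the array probes were not used here, so how much of each signal comes from ANXA2 itself was not tested. The other ANXA2 probes bear on this only weakly. The array annotation lists both under a different ANXA2 transcript from that of ILMN_2409167, and a difference between transcripts was not tested. ILMN_1755937 was detected on no array, at 4.34 to 4.64. ILMN_1711899 was detected on 1 array, a scrambled array without doxycycline, at 5.30, and ILMN_1698100 of ANXA2P1 was detected on that same array alone, at 5.29.

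A probe for another copy, ANXA2P2, showed no such gap. This pseudogene, which is not among the members, is read by ILMN_3235632. It had log2 values of 13.72 and 13.42 in hairpin 1 cells, 13.52 and 13.67 in hairpin 2 cells, and 13.62 and 13.65 in scrambled cells, all without doxycycline. The scrambled arrays lay inside the range of the hairpin arrays. The difference from scrambled cells was -0.06 ± 0.17 for hairpin 1 (limma adjusted p = 0.954) and -0.04 ± 0.17 for hairpin 2 (limma adjusted p = 0.970). With doxycycline the ANXA2P2 probe had 13.65 and 13.98 in hairpin 1 cells, 13.63 and 13.53 in hairpin 2 cells, and 13.61 and 13.78 in scrambled cells, and no comparison passed. Its deposited intensity was 9766 to 15220 scanner units over the 12 arrays.

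**Figure D3:**
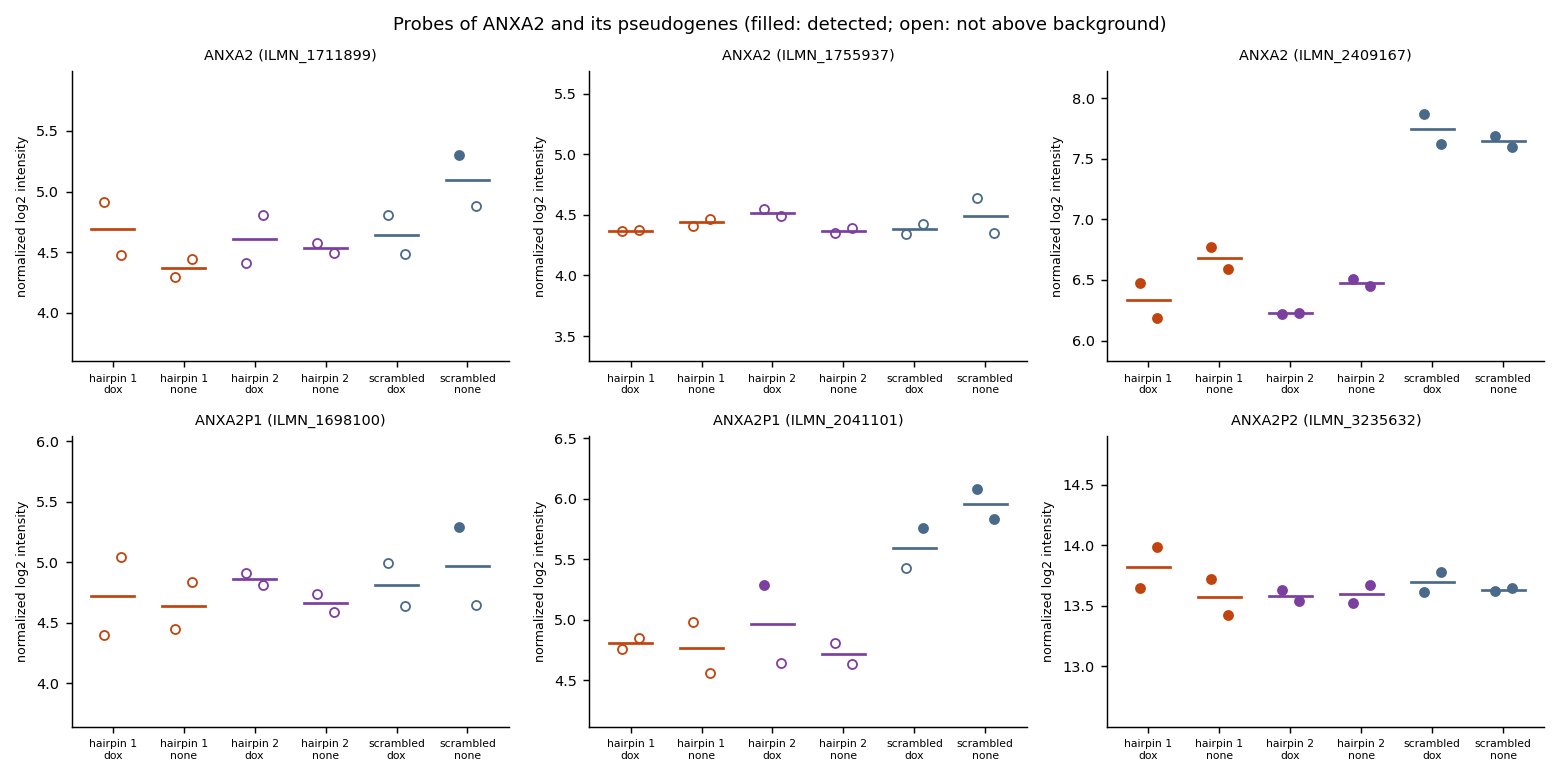
Normalized log2 intensity of the probes of ANXA2 and of its pseudogenes ANXA2P1 and ANXA2P2, by group; points are arrays (filled where detected, open where not above background) and bars are group means of 2 arrays. The scrambled groups stand above the hairpin groups at ILMN_2409167 and ILMN_2041101, and all 12 arrays of the ANXA2P2 probe lie between 13.42 and 13.98.

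ANXA1 rose with doxycycline in hairpin 1 cells. Its only probe, ILMN_2184184, had normalized log2 intensities of 7.42 and 7.60 in hairpin 1 cells with doxycycline, against 6.47 and 6.16 without it. The groups did not overlap, and the log2 difference was 1.20 ± 0.22 (SE, 2.29-fold higher, limma adjusted p = 0.0273), the 4th largest rise among all 19172 probes tested. Hairpin 2 cells had ANXA1 values of 7.02 and 7.37 with doxycycline, against 6.77 and 6.44 without it. These groups did not overlap either, but the log2 difference of 0.59 ± 0.22 (95% interval 0.11 to 1.07) did not pass (limma adjusted p = 0.240). In scrambled cells ANXA1 had 5.59 and 6.15 with doxycycline, against 5.83 and 6.17 without it. There the groups overlapped, and the log2 difference was -0.13 ± 0.22 (limma adjusted p = 0.901).

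The tests of the differences between these responses did not pass. For ANXA1 the log2 response to doxycycline in hairpin 1 cells minus that in scrambled cells was 1.32 ± 0.32 (limma adjusted p = 0.147), and in hairpin 2 cells minus that in scrambled cells it was 0.72 ± 0.32 (limma adjusted p = 0.371). The mean of both hairpin responses minus the scrambled response was 1.02 ± 0.27 (limma adjusted p = 0.182). Hairpin 1 and hairpin 2 responses differed by 0.60 ± 0.32 (95% interval -0.08 to 1.28, limma adjusted p = 0.550), so the data do not settle whether the hairpins act alike on ANXA1. The hairpin 1 response minus the scrambled response passed without background correction (0.77, limma adjusted p = 0.0335) and in the authors' normalized values (0.77, limma adjusted p = 0.0343).

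The ANXA1 rise with hairpin 1 was also sensitive to single arrays. Leaving out any 1 of the 4 hairpin 1 arrays ended the call, with a log2 difference of 1.04 to 1.35 and a limma adjusted p of 0.0829 to 0.183. It was also lost without the detection filter (limma adjusted p = 0.0823). Without background correction the ANXA1 rise was 0.72 (limma adjusted p = 0.00176).

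ANXA1 also separated the induced hairpin sublines from the induced scrambled subline, in the comparison added after the data had been seen. With doxycycline it was higher than in scrambled cells by 1.64 ± 0.22 in hairpin 1 cells (3.12-fold, limma adjusted p = 0.00113) and by 1.32 ± 0.22 in hairpin 2 cells (2.50-fold, limma adjusted p = 0.00498). Without doxycycline the differences were 0.32 ± 0.22 for hairpin 1 (limma adjusted p = 0.731) and 0.60 ± 0.22 for hairpin 2 (limma adjusted p = 0.391), and neither passed. The hairpin 2 call with doxycycline was lost without array 2 of hairpin 2 with doxycycline (1.15, limma adjusted p = 0.0671) and without array 1 of scrambled cells with doxycycline, the dimmest array (1.05, limma adjusted p = 0.0608). Without background correction the ANXA1 differences with doxycycline were 0.92 for hairpin 1 and 0.71 for hairpin 2, and both passed.

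In the order of ANXA1 group means, hairpin 1 with doxycycline (7.51 ± 0.13, SD, n = 2) stood above hairpin 2 with doxycycline (7.20 ± 0.25), and the 2 groups did not overlap. Hairpin 2 without doxycycline (6.60 ± 0.23) and hairpin 1 without it (6.32 ± 0.22) followed and overlapped each other. Scrambled cells without doxycycline (6.0 ± 0.24) overlapped the hairpin 1 group without it, and overlapped scrambled cells with doxycycline (5.87 ± 0.39), the lowest group. ANXA1 and ANXA2 therefore lay in opposite order: the scrambled groups were the highest for ANXA2 and the lowest for ANXA1.

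**Figure D4:**
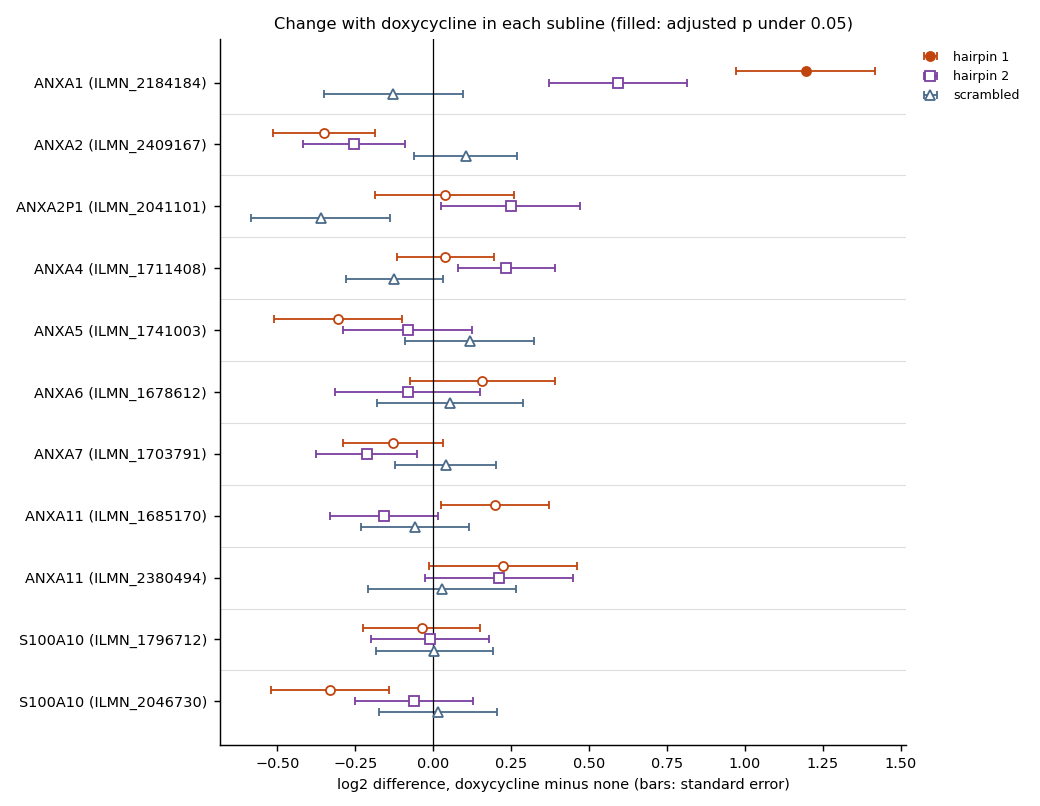
Log2 difference between cells with doxycycline and cells without it in each subline, for the 11 member probes tested; bars are standard errors and filled symbols have an adjusted p under 0.05. ANXA1 in hairpin 1 cells, at 1.20, is the only filled symbol.

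With doxycycline against none, 1 of the 11 member probes tested rose in hairpin 1 cells and none fell, where 0.589% of all probes passed and 0.0991% were higher. Of the 11, 0 passed in hairpin 2 cells by limma, with 1 at an unadjusted p under 0.05, where 0.97% of all probes passed. In scrambled cells 0 of 11 passed by limma and 0 had an unadjusted p under 0.05, where 0.0313% of all probes passed. The members' median log2 difference was 0.04 in hairpin 1 cells, -0.06 in hairpin 2 cells and 0.02 in scrambled cells, beside 0.01, 0.00 and 0.00 over all probes tested. In the mean hairpin response minus the scrambled response 0 of 11 passed by limma, with 1 at an unadjusted p under 0.05, where 0.209% of all probes passed. In the hairpin 1 response minus the scrambled response 0 of 11 passed (1 unadjusted, 0.177% of all probes), and likewise for hairpin 2 (1 unadjusted, 0.214% of all probes). In the difference of the hairpin responses 0 of 11 passed by limma (0 unadjusted, 0.0417% of all probes).

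Groups that did not overlap were frequent with 2 arrays each, for members and for all probes. With doxycycline against none they were 4 of 11 members in hairpin 1 cells against 42.2% of all probes, 5 in hairpin 2 cells against 46.9%, and 2 in scrambled cells against 38%. Between hairpin 1 and scrambled cells they were 5 of 11 members without doxycycline against 37.3%, and 9 with it against 45.7%. Between hairpin 2 and scrambled cells they were 6 without doxycycline against 39.6%, and 9 with it against 49.7%. Between hairpin 1 and hairpin 2 cells without doxycycline they were 3 of 11 against 34%. The 11 members include ANXA2P1, detected on 3 of 4 scrambled and 1 of 8 hairpin arrays. They also include ANXA6, detected on 2 of 8 hairpin arrays and no scrambled array. The filter thus favoured a gap between hairpin and scrambled cells at these probes.

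S100A10, the partner of annexin A2, had no difference with doxycycline that passed at either of its probes. ILMN_1796712 had 11.30 and 11.17 in hairpin 1 cells with doxycycline, against 11.44 and 11.11 without it. In hairpin 2 cells it had 11.27 and 11.42 with doxycycline, against 11.54 and 11.18 without it. In scrambled cells it had 11.83 and 11.54 with doxycycline, against 11.56 and 11.80 without it. The groups of each subline overlapped, and the log2 differences were -0.04 (95% interval -0.44 to 0.37), -0.01 (-0.42 to 0.40) and 0.00 (-0.40 to 0.41) for hairpin 1, hairpin 2 and scrambled cells. By these intervals a change of S100A10 with doxycycline larger than 0.44 on the log2 scale in either direction lay outside the range at this probe.

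Between sublines the same S100A10 probe lay lower on every hairpin array than on any scrambled array, but no difference passed. The 8 hairpin arrays lay at 11.11 to 11.54 and the 4 scrambled arrays at 11.54 to 11.83, with the highest hairpin array just under the lowest scrambled array. Without doxycycline the log2 difference was -0.41 ± 0.19 for hairpin 1 (limma adjusted p = 0.534) and -0.32 ± 0.19 for hairpin 2 (limma adjusted p = 0.616). With doxycycline it was -0.45 ± 0.19 for hairpin 1 (limma adjusted p = 0.262) and -0.34 ± 0.19 for hairpin 2 (limma adjusted p = 0.356). Groups of 2 arrays that do not overlap were common in the whole table, as given above.

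At the second S100A10 probe, ILMN_2046730, the hairpin 1 arrays lay below the scrambled arrays both with and without doxycycline, while the hairpin 2 arrays overlapped them in both cases. It had 11.64 and 11.43 in hairpin 1 cells with doxycycline, against 11.89 and 11.84 without it, a log2 difference of -0.33 ± 0.19 (limma adjusted p = 0.568). In hairpin 2 cells it had 11.88 and 11.81 with doxycycline, against 12.17 and 11.65 without it, and in scrambled cells 11.83 and 12.15 with doxycycline, against 11.94 and 11.997 without it. The hairpin 1 arrays with doxycycline were the 2 lowest of the 12, and the highest was a hairpin 2 array without it. Without doxycycline the difference from scrambled cells was -0.10 ± 0.19 for hairpin 1 and -0.06 ± 0.19 for hairpin 2 (limma adjusted p = 0.937 and 0.951). With doxycycline it was -0.45 ± 0.19 for hairpin 1 and -0.14 ± 0.19 for hairpin 2 (limma adjusted p = 0.265 and 0.745).

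The other annexins were steadier, and none passed in any comparison. ANXA4, which acts in epithelial membranes (ILMN_1711408), had 6.63 and 6.36 in hairpin 1 cells with doxycycline, against 6.45 and 6.46 without it. In hairpin 2 cells ANXA4 had 6.50 and 6.34 with doxycycline, against 6.16 and 6.21 without it, a log2 difference of 0.23 ± 0.16 (limma adjusted p = 0.543) between groups that did not overlap. In scrambled cells it had 6.13 and 6.16 with doxycycline, against 6.22 and 6.32 without it, a log2 difference of -0.13 ± 0.16 (limma adjusted p = 0.851). The whole range of ANXA4 group means was 0.35.

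ANXA5, whose product binds phosphatidylserine exposed on dying cells and is used to stain them, was read by ILMN_1741003. It had 10.40 and 10.98 in hairpin 1 cells with doxycycline, against 10.90 and 11.09 without it, a log2 difference of -0.31 ± 0.21 (limma adjusted p = 0.638). The lowest ANXA5 array of the 12 was hairpin 1 array 1 with doxycycline. ANXA5 in hairpin 2 cells had 10.85 and 10.96 with doxycycline, against 10.95 and 11.02 without it, and in scrambled cells 11.0015 and 10.76 with doxycycline, against 10.96 and 10.57 without it. The groups overlapped in all 3 sublines.

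ANXA7, studied as a tumor suppressor in prostate cancer, had the narrowest range of group means among the 9 member probes detected on all 12 arrays. Its probe ILMN_1703791 lay between 10.45 and 10.85 on all 12 arrays, and its group means spanned 0.22. The log2 difference with doxycycline was -0.13 ± 0.16 in hairpin 1 cells, -0.21 ± 0.16 in hairpin 2 cells and 0.04 ± 0.16 in scrambled cells, with limma adjusted p = 0.832, 0.605 and 0.965.

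ANXA11, which tethers RNA granules to lysosomes, had 2 detected probes, and no difference passed at either. ILMN_1685170 had 6.89 and 6.78 in hairpin 1 cells with doxycycline, against 6.66 and 6.62 without it, and 6.75 and 6.76 in hairpin 2 cells with doxycycline, against 6.79 and 7.04 without it. Its log2 difference was 0.20 ± 0.17 in hairpin 1 cells and -0.16 ± 0.17 in hairpin 2 cells (limma adjusted p = 0.731 and 0.747). ILMN_2380494 had log2 differences of 0.22 ± 0.24 and 0.21 ± 0.24 in the same comparisons (limma adjusted p = 0.790 and 0.753), and its arrays lay between 5.35 and 6.13. ANXA6, which organises cholesterol-rich membrane, was near background: ILMN_1678612 was detected on 2 of 12 arrays, both from hairpin sublines, and lay between 4.45 and 5.39.

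Among genes around the annexins, from lists chosen with earlier results of these data known, 1 S100 gene and 1 membrane repair gene passed in any comparison. Both passed in hairpin 2 against scrambled cells with doxycycline only, where 4.07% of all probes passed. Of the other annexin genes, which include ANXA8, ANXA9, ANXA10 and ANXA13, 2 of 14 probes passed the filter, ANXA2P2 and ANXA2R, and 0 passed in any comparison. Of the other S100 genes 7 of 26 probes, of 5 genes, passed the filter. S100A13 takes part in the release of growth factors that lack a signal peptide. It was higher in hairpin 2 than in scrambled cells with doxycycline at ILMN_1765459 (0.63 ± 0.16, limma adjusted p = 0.0491). The other 6 probes did not pass there, among them further probes of S100A13. Those had group means of 9.92 against 9.59 (ILMN_2407168) and 6.09 against 6.06 (ILMN_1667138) in the same comparison. The 7 S100 probes had a median log2 difference of 0.50 with doxycycline in hairpin 2 cells, 0.06 in hairpin 1 cells and 0.03 in scrambled cells, beside 0.00, 0.01 and 0.00 over all probes, and 0 of 7 passed in each. Of the binding partners of annexin A2 and S100A10, such as AHNAK, PLAUR and CTSB, 11 of 27 probes passed the filter and 0 of 11 passed in any comparison.

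Membrane repair genes, such as the ferlins, calpains and ESCRT components, had 14 probes tested. MYOF, a ferlin that helps membranes fuse, was higher in hairpin 2 than in scrambled cells with doxycycline at ILMN_1810289 (1.14 ± 0.29, limma adjusted p = 0.0413). The scrambled mean of 5.08 lay under the lowest detected signal of those arrays (5.49 and 5.15), so the size of the difference is uncertain. The other 13 did not pass there, among them MYOF at ILMN_3302919 (means of 5.49 against 4.69). The MYOF probe ILMN_2370976 was detected on no array. The partners and receptors of other annexins (7 probes tested) and the copines, which also bind phospholipid with calcium (8 probes tested), had 0 that passed in any comparison.

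Some genes of the marker lists were higher, like ANXA1, in the hairpin sublines than in the scrambled subline with doxycycline. Of the 8 stromal genes, VIM and LUM passed in both hairpin sublines, DCN was detected and did not pass, and COL1A1, COL1A2, COL3A1, THY1 and SPARC were not detected. The summed log2 level of the brightest probes of all 8 was 44.1 to 44.3 in hairpin 1 cells with doxycycline and 43.6 to 43.7 without it, 43.8 to 45.3 in hairpin 2 cells with doxycycline and 43.9 to 44.1 without it, and 41.4 to 42.1 in scrambled cells with doxycycline and 42.2 to 42.4 without it. VIM, which encodes vimentin, was higher with doxycycline than in scrambled cells by 1.01 ± 0.15 in hairpin 1 and 1.47 ± 0.15 in hairpin 2 cells at ILMN_1782538 (limma adjusted p = 0.00244 and 0.000155). LUM, which encodes the matrix proteoglycan lumican, was higher by 1.31 ± 0.18 in both at ILMN_1790529 (limma adjusted p = 0.00156 and 0.00154). Its means with and without doxycycline were 6.55 and 6.44 in hairpin 1 cells, 6.55 and 6.68 in hairpin 2 cells, and 5.25 and 6.11 in scrambled cells. The scrambled mean with doxycycline lay near the lowest detected signal of those arrays (5.49 and 5.15), so the size of the LUM difference is uncertain. The LUM probe ILMN_2167805 was detected on no array. FOLH1, a luminal gene that encodes PSMA, was higher than in scrambled cells with doxycycline at ILMN_1681651. The difference was 1.07 ± 0.17 for hairpin 1 and 1.69 ± 0.17 for hairpin 2 (limma adjusted p = 0.00334 and 0.000114). FOLH1 also rose with doxycycline within hairpin 2 cells at its other probe, ILMN_1735115 (1.17 ± 0.17, limma adjusted p = 0.00553). That rise did not pass at ILMN_1681651. At ILMN_1735115 the differences from scrambled cells with doxycycline were 0.99 ± 0.17 and 1.86 ± 0.17 for hairpin 1 and hairpin 2 (limma adjusted p = 0.00747 and 7.14e-05). TMPRSS2, a luminal gene for a membrane protease, was higher in hairpin 2 cells at ILMN_1791123 (0.80 ± 0.16, limma adjusted p = 0.0127) and did not pass in hairpin 1 cells. The other luminal genes did not pass, and the means of the keratin gene KRT8 at ILMN_1753584 were 10.23 in hairpin 1 cells and 10.26 in hairpin 2 cells, against 10.76 in scrambled cells, all with doxycycline. The summed level of the 7 luminal genes was 53.5 to 54.0 and 53.7 to 54.3 in hairpin 1 cells with and without doxycycline, 55.7 to 55.9 and 53.9 to 55.1 in hairpin 2 cells, and 52.9 to 53.3 and 52.6 to 53.0 in scrambled cells. Of the 4 neuroendocrine genes, all detected, CHGB, which encodes chromogranin B, was higher than in scrambled cells with doxycycline by 0.76 ± 0.16 in hairpin 1 and 0.71 ± 0.16 in hairpin 2 cells at ILMN_1765966 (limma adjusted p = 0.0203 and 0.0254), and CHGA, SYP and ENO2 did not pass. Their summed level was 31.6 to 31.8 in hairpin 1 cells with doxycycline and 30.4 to 31.3 without it, 31.3 to 31.4 in hairpin 2 cells with doxycycline and 30.7 to 30.9 without it, and 30.0 to 31.0 in scrambled cells with doxycycline and 30.5 to 30.6 without it. No stromal, luminal or neuroendocrine marker passed between hairpin and scrambled cells without doxycycline. VIM was already higher there at ILMN_1782538, with means of 9.47 in hairpin 1, 9.50 in hairpin 2 and 8.99 in scrambled cells. At its other probe, ILMN_2058251, the means without doxycycline were 8.39, 8.41 and 7.47 in the same order. The part of these markers in the ANXA1 and ANXA2 results was not tested.

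The genes whose pattern over the 12 arrays lay closest to a member's were found among 11163 other genes, by the root-mean-square difference between profiles that were each centred on their own mean. For ANXA2, whose own profile varied by 0.62 around its mean, they were MOB3B (0.168), RAB34 (0.198) and KHK (0.223), which encode a kinase regulator, a small GTPase and the fructose-metabolising enzyme ketohexokinase. MOB3B and RAB34 were near background in the hairpin groups, with means of 4.43 to 4.83 and 4.68 to 5.05. KHK had group means of 6.35 in hairpin 1 cells with doxycycline and 6.32 without it, 6.01 in hairpin 2 cells with doxycycline and 6.18 without it, and 7.62 in scrambled cells with doxycycline and 7.27 without it. For ANXA1, whose profile varied by 0.63, the closest were DSEL (0.232), NCAM2 (0.234) and TRIM51 (0.248). NCAM2, a neural cell adhesion molecule, had 9.49 in hairpin 1 cells with doxycycline and 8.75 without it, 9.32 in hairpin 2 cells with doxycycline and 8.73 without it, and 8.26 in scrambled cells with doxycycline and 8.47 without it. For S100A10 at its brighter probe ILMN_2046730 the closest were RAD51AP1 (0.119), ZBTB8OS (0.121) and SLC35B2 (0.121), where a gene that did not vary at all would lie at 0.200.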

How the data were processed

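Gene expression was measured on 12 HumanHT-12 v4 arrays, 2 in each of 6 groups taken from the sample labels. The authors deposited a non-normalized intensity for each probe and array, and beside it a detection p-value computed by their software (BeadStudio, per the submitters' processing notes, which give no version). The authors' series matrix holds normalized log2 intensities (Partek, per the same notes, also with no version); each array had the same median, 6.67, and ranks equal to those of its own intensities. Probes are named from the platform annotation, and all 17 member probes matched the reference by gene ID.

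In R 4.3.3 with limma 3.58.1, neqc was run with an offset of 16, which covers background correction, quantile normalization and log2. The 19172 probes detected (p under 0.01) on 2 or more arrays were kept. A linear model over 6 groups with empirical Bayes moderation gave 10 planned contrasts and 2 added later. Two-sided p-values were adjusted over the kept probes (Benjamini-Hochberg, threshold 0.05). "At least" folds set the brighter group's mean against the dim group's mean, where a dim array counts at its lowest detected signal or, if higher, at the probe's own. The fit was tested on simulated data. The number of arrays limits the precision.

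The members and gene lists were chosen with earlier results of these data known. Named are all member probes, HNF4G, up to 4 genes of each list past the threshold, and the 3 genes closest in pattern to ANXA2, S100A10 and the member with the largest range of group means, ANXA1. ANXA2P2, KRT8 and the markers that did not pass were named after their values were seen. Alternatives were no background correction, median scaling, the authors' values, no detection filter, 1 probe a gene, the replicate number as a block, and each array left out.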

Additional observations from a re-analysis of the deposited data

Results flagged for a closer look

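ANXA4, at ILMN_1711408, was higher with doxycycline on both hairpin 2 arrays (log2 difference 0.23, 95% interval -0.10 to 0.57). It was lower with doxycycline on both scrambled arrays (-0.13, 95% interval -0.46 to 0.21). ANXA11, at ILMN_1685170, was higher with doxycycline on both hairpin 1 arrays (0.20) and lower with it on both hairpin 2 arrays (-0.16). The other ANXA11 probe, ILMN_2380494, had log2 differences of 0.22 in hairpin 1 cells and 0.21 in hairpin 2 cells, and its responses differed by 0.01 (limma adjusted p = 0.994). The first 4 changes were singled out because the groups of each subline did not overlap and pointed opposite ways. No test was used to single them out, and none of these 4 passed its own limma test. Groups that did not overlap were common over all probes, at 42.2% in hairpin 1, 46.9% in hairpin 2 and 38% in scrambled cells. As separate tests, the hairpin 2 response of ANXA4 minus the scrambled response was 0.36 ± 0.22 (limma adjusted p = 0.544), and the hairpin 1 response of ANXA11 at ILMN_1685170 minus the hairpin 2 response was 0.35 ± 0.24 (limma adjusted p = 0.673).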

How the results depend on the processing

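The 132 results for single member probes gave 2352 values over 18 alternatives. Of these, 2315 kept their side of the threshold, 35 lost the call and 2 gained it. Direction was compared only where a value passed in the report's setting or in the alternative, and 0 of those reversed. The report names the losses and gains of ANXA1, ANXA2 and ANXA2P1, and their cause was not tested. Median scaling in place of quantile normalization gave medians of all probes of up to 0.29 (0.01 in the report's setting), and of 0.24 and 0.28 (0.01 in each) for hairpin 1 and hairpin 2 against scrambled cells with doxycycline; there, with that median not subtracted, ANXA2 lay at -1.12 and -1.20, and ANXA1 at 1.84 and 1.57. With 2 arrays a group the precision is limited, and ANXA2P1 and ANXA6 lay near background.

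Counts of all probes that passed moved more. Without background correction they were 280 (113 in the report's setting) for doxycycline in hairpin 1 cells, 599 (186) in hairpin 2 cells and 39 (6) in scrambled cells. They were 189 (40) for the mean hairpin response minus the scrambled response, 119 (34) for hairpin 1, 263 (41) for hairpin 2, and 160 (8) for hairpin 1 minus hairpin 2. Against scrambled cells they were 132 (64) and 116 (48) for hairpin 1 and hairpin 2 without doxycycline, and 873 (508) and 1394 (780) with it. The authors' values gave 282, 597, 38, 190, 119, 263, 164, 133, 115, 876 and 1389 in the same order.

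Median scaling gave 9 for hairpin 1 minus scrambled, 20 for hairpin 1 minus hairpin 2, 3 (1) for hairpin 1 against hairpin 2 cells without doxycycline, and 1595 for hairpin 2 against scrambled cells with it. It also moved the share of higher probes among those that passed by over 10 percentage points, with higher and lower counts of 1447 and 148 (388 and 392) for hairpin 2 and 577 and 133 (222 and 286) for hairpin 1 against scrambled cells with doxycycline, 35 and 31 (11 and 37) and 8 and 57 (18 and 46) without it, 28 and 49 (19 and 94) for doxycycline in hairpin 1 cells, 28 and 12 (12 and 28) for the mean response, 6 and 3 (8 and 26) and 16 and 13 (12 and 29) for hairpin 1 and hairpin 2 minus scrambled, and 17 and 3 (3 and 5) for hairpin 1 minus hairpin 2. Without the detection filter the counts were 2 for scrambled cells, 16 for hairpin 1 minus hairpin 2, and 38 and 31 against scrambled cells without doxycycline. With 1 probe a gene they were 3 for scrambled cells and 23 for hairpin 1 minus hairpin 2.

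Same-numbered arrays did not deviate together (correlations of -0.03 to 0.06 over 15 pairs), so no shift shared by a replicate number was seen. Whether equal numbers stand for a shared culture or day is not in the labels. With the replicate number as a block the counts were 20 for hairpin 1 minus scrambled and 4 for hairpin 1 minus hairpin 2. No member call changed. Leaving out 1 array at a time gave counts of 32 to 111 for doxycycline in hairpin 1 cells, 38 to 191 in hairpin 2 cells and 0 to 6 in scrambled cells, and of 1 to 33, 0 to 24, 1 to 35 and 0 to 6 for the 4 differences of responses. Against scrambled cells it gave 15 to 69 and 12 to 52 without doxycycline and 178 to 483 and 216 to 783 with it, and 1 to 3 for hairpin 1 against hairpin 2 cells.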
